A study of Mus musculus with 12 samples.

Results

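The genes described here encode the subunits of ligand gated ion channels, the receptors that open a pore when a transmitter binds. A gene was included when its symbol followed the naming pattern of a GABA-A, glycine, AMPA, kainate, NMDA, delta, nicotinic, P2X or 5-HT3 subunit. The pattern took 67 of the 55304 genes of the expression table and used no measured value. They comprised 19 GABA-A, 5 glycine, 4 AMPA, 5 kainate, 7 NMDA, 2 delta, 16 nicotinic, 7 P2X and 2 5-HT3 subunit genes.

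Each of these channels is an assembly of subunits, and the subunits that a cell makes set which transmitter it can sense and which ion it lets through. GABA-A and glycine receptors pass chloride, whereas glutamate, nicotinic, P2X and 5-HT3 receptors pass cations. Corticotrophs, which secrete ACTH from the anterior pituitary, fire action potentials and admit calcium with them, and such channels are one route by which a local transmitter can reach an endocrine cell.

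RNA was sequenced from eGFP positive cells sorted from the anterior pituitary of male *Pomc*-eGFP mice on the C57Bl6/J background, aged 8 weeks at the start. All 4 groups carried the transgene, in which eGFP is driven by *Pomc* regulatory sequence, so that the gate used a reporter of a gene that DEX itself acts on. Control mice drank plain water. The DEX group had received dexamethasone, a synthetic glucocorticoid, at 2.5 µg/ml in the drinking water for 4 weeks. The 1 week and 4 weeks recovery groups had received the same course and were collected 7 and 28 days after it was withdrawn. Each group had 3 libraries, and each library came from a pool of 2 to 3 pituitaries, from which the intermediate and posterior lobes had been removed. The question put to these data was which receptor subunits the sorted cells transcribed, and whether their RNA differed with DEX and after its withdrawal. The spread behind every limma p-value is that between pools within groups. It was estimated once per gene over all 12 libraries and moderated across genes, so the 1 week pools enter it in every comparison. With 3 pools against 3 an exact permutation test of 1 gene cannot go below p = 0.1.

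The libraries held 7719894 to 12848078 reads on genes, of which the 67 members together took 0.0598% to 0.118%. *Gh*, the growth hormone gene, took 8.20% to 22.9% of the reads and *Prl*, the prolactin gene, 3.5% to 10.3%, so that RNA of other pituitary lineages was present in every pool. *Pomc* itself took 0.454% to 20% of the reads. It stood at 34562 to 74260 CPM in control and 4241 to 8521 in DEX. After 1 week it stood at 43612 to 284740 and after 4 weeks at 48189 to 80216. Of the 6 corticotroph markers, 3 had a log2 difference above 0 in DEX against control. *Crhr1* and *Pcsk1* had lower means in DEX (83.4 and 229 CPM) than in control (123 and 345), and *Avpr1b* a higher one (100 against 32.6). *Tbx19*, the transcription factor that defines the *Pomc* lineage, stood at 218 to 459 CPM in control, 498 to 1490 in DEX, 39.5 to 385 after 1 week and 94.4 to 188 after 4 weeks. Of the 2 melanotroph markers, *Pax7* did not exceed 0.34 CPM, whereas *Pcsk2*, which encodes a prohormone convertase, stood at 38.3 to 129.7 CPM and had reads in all 12 libraries. The 1 week pools lay farthest from the other pools of their own group, and control pool 3 lay farther than any other pool outside the 1 week group. Values were also computed without control pool 3 and 1 week pools 2 and 3, a set chosen after seeing the data and called the 3 distant pools below. It is not the set of the 3 farthest pools. The 1 week pool 1 was kept, although its mean distance to its group (189.6) exceeded that of control pool 3 (182.7). This removal leaves 1 pool at 1 week, which is assumed to vary like the other groups.

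Values are normalised counts (CPM), scaled by the authors to the effective library size. A single read was worth 0.0787 to 0.127 CPM, and 3 reads were taken as the floor below which a gene was not counted as measured. This floor, like the depth, covers counting error only. Of the 67 members, 59 exceeded 0.1 CPM in at least 3 libraries and were tested. *Htr3b*, *P2rx1*, *Chrna5* and *Glra3* had reads but fell under that filter. *Gabrr3*, *Gabrp*, *Gabra6* and *Chrng* had no read in any of the 12 libraries, which at 3 reads allows up to 0.236 to 0.382 CPM per library. The mean over the 12 libraries was at least 10 CPM for 19 members, between 1 and 10 for 23, and below 1 for 25.

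Levels between genes were compared as CPM per kb of exon. By this measure *Chrnb3* stood at 13.1 CPM per kb (mean of 12 libraries) and *Glrb* at 11.7. *Chrna6* was at 5.69, and *Htr3a*, *Grin1* and *P2rx4* lay between 5.34 and 5.54, closer together than the spread of any of these genes over pools. The summed level was 52.9 CPM per kb for the GABA-A genes, 31.0 for the nicotinic, 16.2 for the glycine, 13.3 for the AMPA, 9.61 for the P2X, 7.48 for the NMDA, 5.76 for the kainate, 5.55 for the 5-HT3 and 0.26 for the delta genes. Chloride channel subunits and nicotinic subunits therefore made up most of the channel RNA per unit of length.

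**Figure D1:**
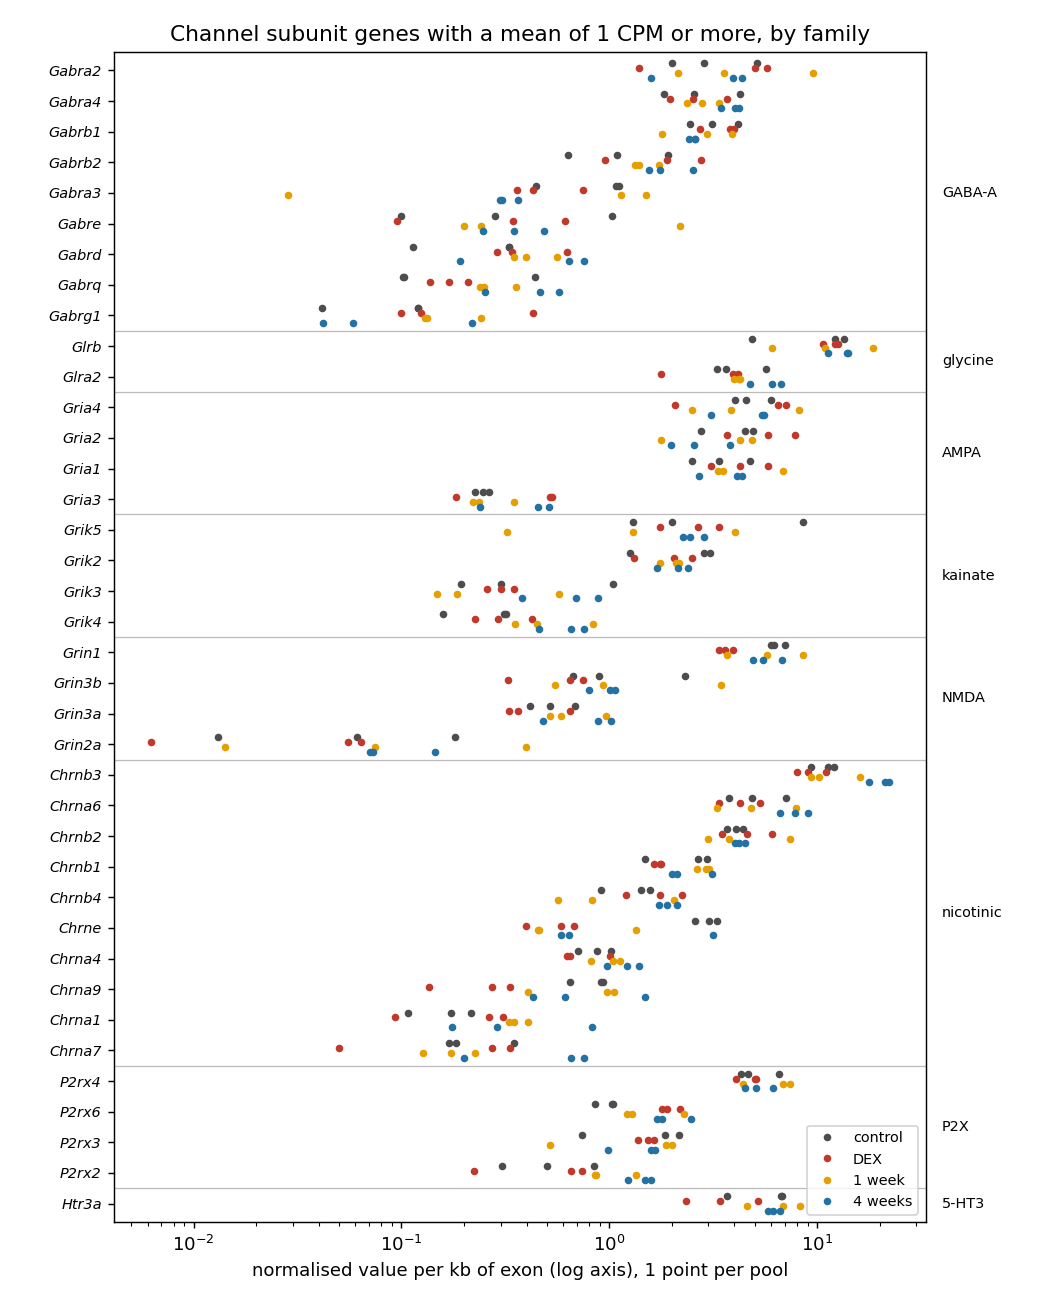
Normalised value per kb of exon on a log axis for members with a mean of at least 1 CPM, grouped by family, with 1 point per pool coloured by group. *Chrnb3* and *Glrb* lie farthest to the right, the DEX points of *Grin1* lie to the left of its control points, and the 4 weeks points of *Chrnb3* lie to the right of all others of that gene.

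A GABA-A receptor is usually built of alpha, beta and gamma subunits. Among the alpha genes *Gabra2* held 40.9% of the summed level per kb (21.0% to 68.5% over the pools), *Gabra4* 35.2% (20% to 53.4%) and *Gabra3* 7.8%. The ranges of *Gabra2* and *Gabra4* overlapped widely, so that their order was not resolved. *Gabra6*, *Gabrp* and *Gabrr3* were listed at 0, and the other rho genes *Gabrr1* and *Gabrr2* averaged 0.756 and 0.326 CPM.

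*Gabrb1*, a beta subunit gene, was at 57.7, 33.9 and 43.3 CPM in control, 54.8, 52.4 and 37.7 in DEX, 41.1, 24.9 and 53.9 after 1 week and 35.9, 35.8 and 33.5 after 4 weeks. Every 4 weeks pool lay below every DEX pool and the other groups overlapped, and the difference (log2 -0.44, SE 0.30, adjusted p = 0.727 by limma) did not pass. *Gabra4* was at 25.8, 15.5 and 11.1 CPM in control, 22.5, 15.5 and 11.9 in DEX, 20.4, 14.4 and 17.0 after 1 week and 21.1, 25.5 and 24.5 after 4 weeks. Its groups overlapped, except that the 4 weeks pools lay above the 1 week pools. *Gabra2* averaged 30.1 CPM over the 12 libraries, from 10.7 to 73.0 in single pools.

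Of the glycine receptor genes, 2 were well measured. *Glrb* encodes the beta subunit that binds the anchoring protein gephyrin, and *Glra2* an alpha subunit best known from immature neurons. *Glrb* averaged 54.5 CPM and *Glra2* 13.8, and together they made up 71.2% and 27.8% of the glycine receptor level per kb. The remaining alpha genes *Glra1*, *Glra3* and *Glra4* did not exceed 0.544 CPM in any pool.

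The AMPA receptor genes, whose channels carry fast glutamate responses, were led by *Gria4* (36.2% of the family per kb), *Gria1* (31.0%) and *Gria2* (30.2%), with ranges that overlapped. *Gria3* held 2.6%. *Grin1*, the obligatory subunit of every NMDA receptor, held 73.1% of the NMDA level per kb. The glutamate binding partners were scarce beside it, *Grin2a* at 1.73 CPM, *Grin2d* at 0.996, *Grin2c* at 0.218 and *Grin2b* at 0.0663 on average against 52.9 for *Grin1*. The remaining NMDA genes, *Grin3a* and *Grin3b*, averaged 7.57 and 3.68 CPM. Of the *Grin3b* exons, 32.1% are shared with *Tmem259* on the other strand. That gene averaged 17.3, 9.5, 14.3 and 13.4 CPM in control, DEX, 1 week and 4 weeks. The library kit does not mark the strand, so that reads of the shared part cannot be told apart. The kainate family was led by *Grik5* (43.2%) and *Grik2* (40.2%), and *Grik5* was at 44.1 CPM in control pool 3 but at 6.69 and 10.4 in control pools 1 and 2.

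Among nicotinic genes *Chrnb3* held 41.3% of the level per kb, *Chrna6* 18.1% and *Chrnb2* 14.9%. *Chrnb3* and *Chrna6* are neighbours on chromosome 8 (GRCm38, 27368711 to 27399730 and 27403212 to 27413944, on opposite strands), and their products join in 1 receptor type known from dopamine neurons. Of the muscle type genes, *Chrnb1* averaged 5.92 CPM, more than the neuronal *Chrnb4* (5.67), *Chrne* 2.43 (5.02 ± 0.62 in control, SD, n = 3) and *Chrna1* 1.29, whereas *Chrnd* averaged 0.0969 and *Chrng* was at 0. *P2rx4*, an ATP gated channel found on the cell surface and in lysosomes, led the P2X family (55.6%), before *P2rx6* (17.1%), *P2rx3* (15.4%) and *P2rx2* (9.2%). *Htr3a*, the subunit without which no 5-HT3 receptor forms, averaged 11.5 CPM, and its neighbour *Htr3b* 0.0367.

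Across the 4 groups, 1 of the 59 tested members, *Chrna3*, passed the limma F test at an adjusted p under 0.05, where 0.315% of the 24736 tested genes did. At an unadjusted p under 0.05 it was 8 members, or 13.6% of them, against 9.21% of all tested genes. Between 4 weeks and DEX 2 members passed, *Chrnb3* higher and *Chrna3* lower at 4 weeks, where 0.873% of all genes did. No member passed in DEX against control, where 0.121% of all genes did, or at 1 week against DEX, where 0.433% did. At 1 week against control, at 4 weeks against control and at 4 weeks against 1 week, no member passed and 0% of all genes did. The members at an unadjusted p under 0.05 in these 5 comparisons by limma numbered 5, 3, 2, 6 and 3, or 8.47%, 5.08%, 3.39%, 10.2% and 5.08% of them, against 6.80%, 10.8%, 3.79%, 6.35% and 5.47% of all tested genes. At 4 weeks against DEX they numbered 11, or 18.6% against 9.94%. The edgeR quasi-likelihood test on recovered reads called 0 members in each of the 6 comparisons. DESeq2 called 2 in DEX against control (*Chrna3* and *Chrne*), 1 at 4 weeks against DEX (*Chrnb3*) and 0 in the others. In these bulk libraries, fewer cells of a type and less RNA per cell cannot be told apart.

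**Figure D2:**
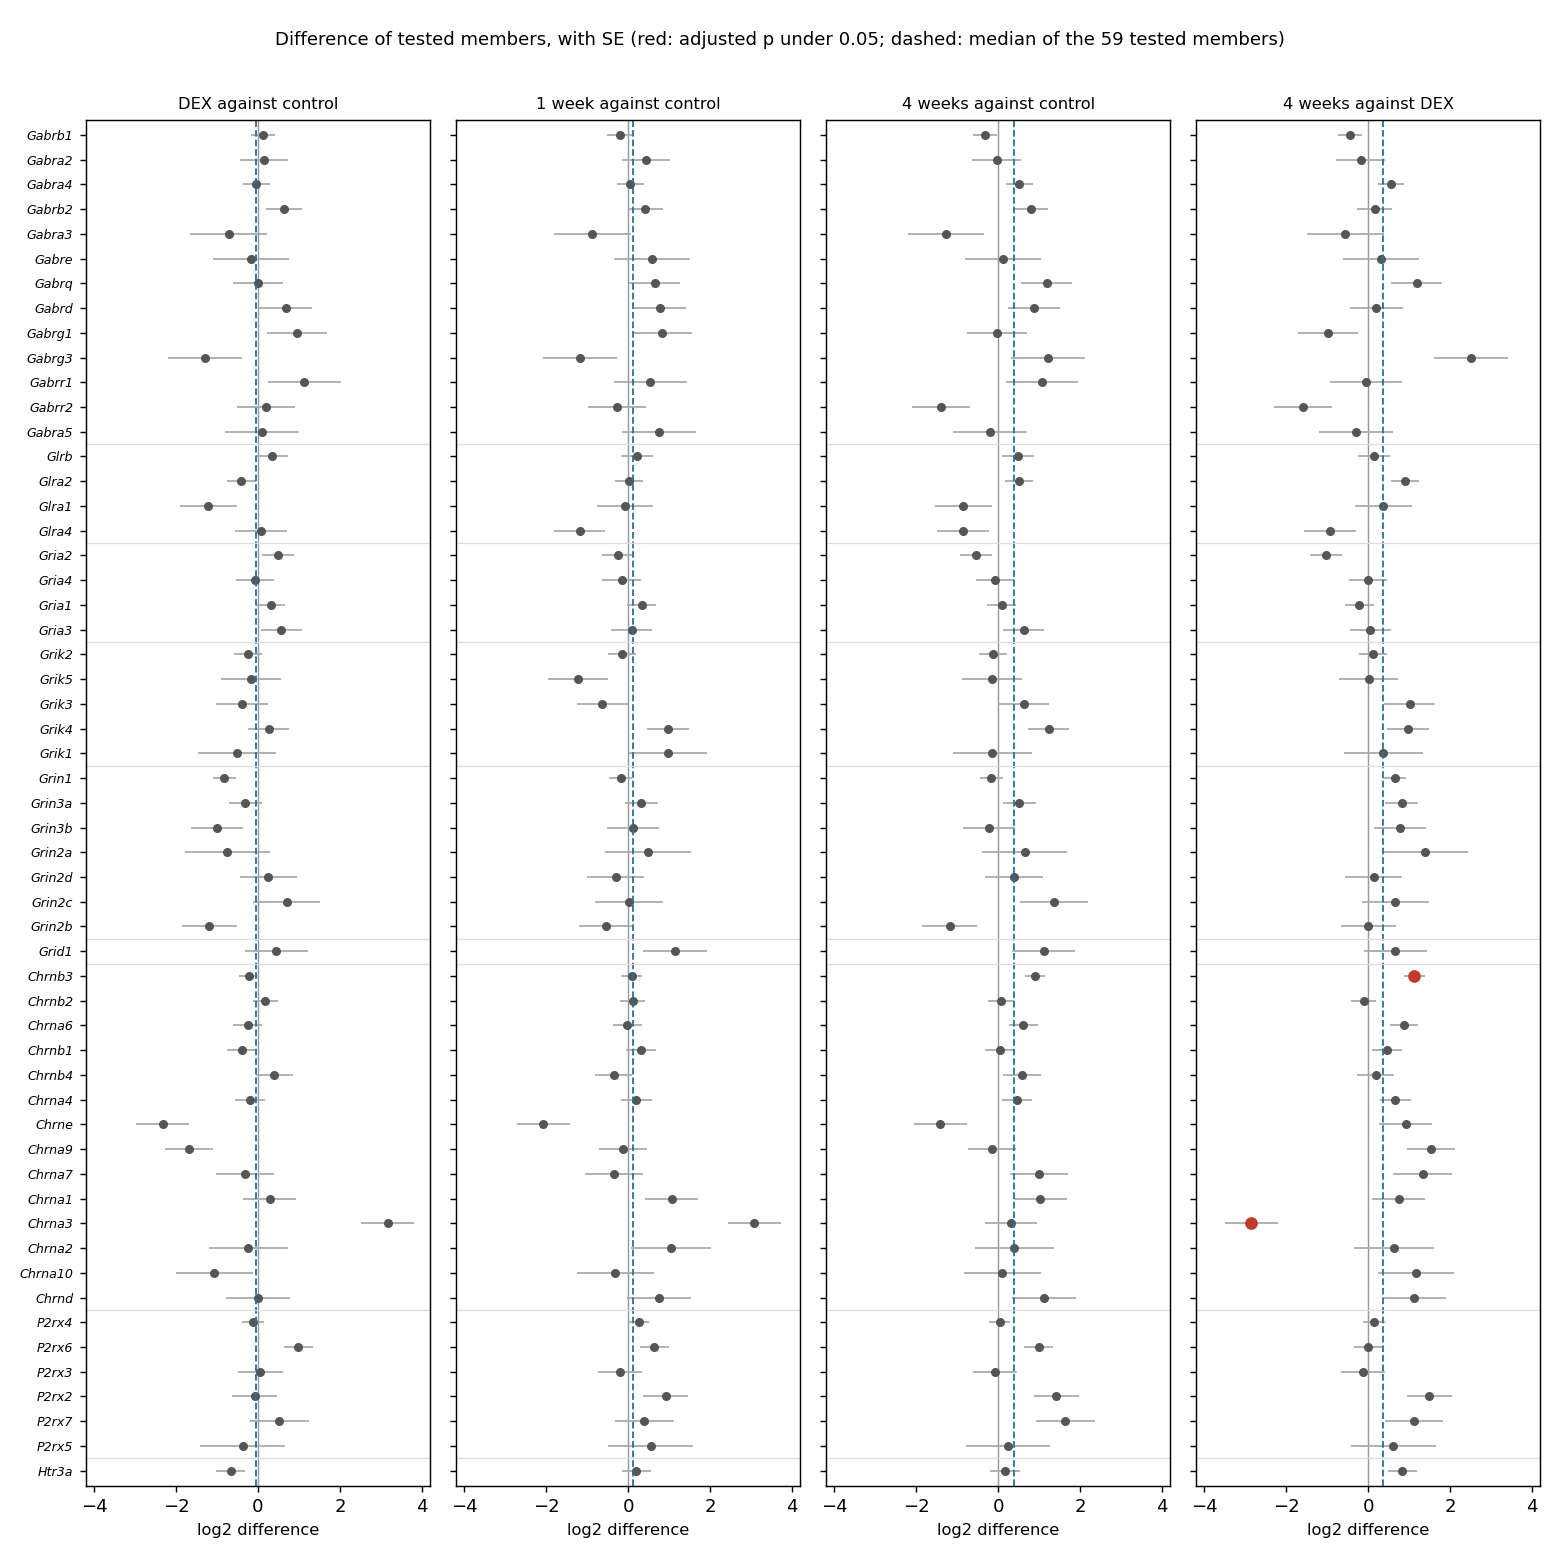
Fitted log2 difference (on log2 of CPM + 0.1) of the tested members, with its SE, in DEX, 1 week and 4 weeks against control and in 4 weeks against DEX. Red points passed an adjusted p of 0.05 (*Chrnb3* and *Chrna3*, 4 weeks against DEX), and the dashed line is the median of the 59 tested members, which lies at -0.03, 0.12, 0.38 and 0.36. The first 3 comparisons share the control pools.

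*Chrna3* encodes the alpha subunit of the ganglionic nicotinic receptor, usually paired with the product of its neighbour *Chrnb4*. Its RNA was scarce in all pools and was found almost only in the DEX and 1 week groups. No read fell on it in control, where its value was 0 in all 3 pools. The DEX pools held 1.49, 0.409 and 0.785 CPM (18, 5 and 7 reads), and the 1 week pools 0.475, 1.27 and 0.667 (5, 10 and 6 reads). The 4 weeks pools held 0, 0 and 0.0902, the last being 1 read. Every DEX and 1 week pool thus lay above every control and 4 weeks pool. Taking 3 reads per library as the floor of the control group, the DEX mean was at least 2.93-fold higher and the 1 week mean at least 2.64-fold higher than control. Against the same floor at 4 weeks, the 4 weeks mean was at least 3.06-fold lower than DEX and at least 2.76-fold lower than 1 week.

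The F test over the 4 groups gave *Chrna3* an adjusted p of 0.0370 (limma), and the difference between 4 weeks and DEX an adjusted p of 0.0488. DEX against control did not pass (adjusted p = 0.0764), nor did 1 week against control (adjusted p = 0.828). The gene passed the filter on low values only through the DEX and 1 week groups, where it was high, so that some difference was built into its being tested. Its F call was lost with the edgeR quasi-likelihood test, with pseudocounts of 0.5 or 1, without the filter, with pools of the same number fitted as a replicate block (adjusted p = 0.0698), without the 3 distant pools (adjusted p = 0.074), and when any 1 pool was left out other than DEX 2, 1 week 1 and 1 week 3 (adjusted p up to 0.198). The call at 4 weeks against DEX was lost with either pseudocount, without the filter, with the replicate block, with both edgeR tests and with DESeq2 (adjusted p up to 0.142), and when any 1 pool was left out other than 1 week 2 and 1 week 3 (adjusted p up to 0.230).

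*Chrna3* lies on chromosome 9 between *Chrna5* and *Chrnb4* (GRCm38, 54980880 to 55048779 for the 3 genes), a cluster whose subunits can assemble together. *Chrna5* had 1 read in 1 library (4 weeks pool 1). *Chrnb4* was at 3.38, 5.30 and 5.87 CPM in control, 8.37, 6.54 and 4.49 in DEX, 7.60, 3.06 and 2.11 after 1 week and 7.85, 6.46 and 7.04 after 4 weeks. The DEX and 1 week pools of *Chrnb4* overlapped control, and 4 weeks lay above it in all pools, with a log2 difference of 0.58 (SE 0.46, adjusted p = 0.894 by limma). Neither neighbour had the order of groups seen for *Chrna3*. The promoters of *Chrna3* and *Chrnb4* are shown for this contrast and that of *Grin1*, described next, because every DEX pool of it lay below every control pool. They are RefSeq windows of GRCm38.p6 from 250 bases before to 50 bases after the gene start, 5′ to 3′ on the strand of the gene, at chr9:55026513-55026812, chr9:55048495-55048794 and chr2:25319138-25319437, all on the minus strand. Capitals mark matches, on either strand, to the GC box letters GGGCGG or the cyclic AMP response element letters TGACG.
Chrna3: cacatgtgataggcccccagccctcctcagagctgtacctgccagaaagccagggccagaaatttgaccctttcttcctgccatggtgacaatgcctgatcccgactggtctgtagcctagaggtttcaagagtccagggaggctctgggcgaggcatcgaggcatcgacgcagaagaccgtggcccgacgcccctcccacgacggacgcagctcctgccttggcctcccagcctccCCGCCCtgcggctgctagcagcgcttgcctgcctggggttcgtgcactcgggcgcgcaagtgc
Chrnb4: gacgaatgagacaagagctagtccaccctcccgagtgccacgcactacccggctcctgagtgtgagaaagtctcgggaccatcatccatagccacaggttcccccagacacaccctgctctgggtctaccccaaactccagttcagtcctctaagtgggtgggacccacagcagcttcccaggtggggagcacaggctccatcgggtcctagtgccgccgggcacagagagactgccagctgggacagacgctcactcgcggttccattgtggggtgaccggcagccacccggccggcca
Grin1: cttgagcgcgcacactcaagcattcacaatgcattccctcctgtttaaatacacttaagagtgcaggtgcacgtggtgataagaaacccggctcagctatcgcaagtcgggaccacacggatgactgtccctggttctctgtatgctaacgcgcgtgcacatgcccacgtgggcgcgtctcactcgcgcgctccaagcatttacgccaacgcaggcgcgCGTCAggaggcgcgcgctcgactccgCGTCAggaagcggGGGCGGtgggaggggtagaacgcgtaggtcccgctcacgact

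The *Chrna3* window held 1 GC box, the *Grin1* window 1 GC box and 2 TGACG matches, and the *Chrnb4* window neither. A window was found for 46 of the 67 members (52 windows). The glucocorticoid response palindrome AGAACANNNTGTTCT was in 0 of the members' windows and in 0.009% of all 32851 windows, and its left arm AGAACA was in 13.5% and 19.0%. TGACG was in 17.3% of the members' windows and 20.8% of all, and GGGCGG in 46.2% and 35.7%. These matches overlap no other motif searched and describe letters only. Median GC content was 58.0% in the members' windows and 52.7% in all.

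*Chrnb3*, the accessory nicotinic subunit, was among the most abundant members and stood highest 4 weeks after withdrawal. Its values were 71.9, 76.9 and 59.6 CPM in control, 57.5, 70.4 and 51.1 in DEX, and 64.7, 103 and 59.5 at 1 week. The 4 weeks pools were at 113, 141 and 135, above all 9 other pools. The 4 weeks group rose above DEX by 1.12 on the log2 scale (SE 0.25, adjusted p = 0.0485 by limma), while DEX itself differed from control by less than the pools did (log2 -0.22, SE 0.25). Against control the difference was 0.90 (SE 0.25, adjusted p = 0.527) and did not pass. Its share of the nicotinic level per kb was 37.4% ± 2.8 in control, 38.8% ± 3.7 in DEX, 40.1% ± 1.4 after 1 week and 49.0% ± 4.9 after 4 weeks (SD, n = 3). The call against DEX was lost with the edgeR quasi-likelihood test (adjusted p = 0.0552), without the filter on low values, and when any 1 pool was left out other than control 3, 1 week 2 and 1 week 3, with the log2 difference between 1.02 and 1.25 throughout and an adjusted p of up to 0.233. The F test gave *Chrnb3* an adjusted p of 0.152, and 0.0199 without the 3 distant pools.

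Its neighbour *Chrna6* was at 14.1, 20.6 and 11 CPM in control, 15.5, 12.4 and 9.76 in DEX, 9.60, 23.1 and 13.9 after 1 week and 19.2, 22.8 and 26.3 after 4 weeks. The 4 weeks pools lay above the DEX pools but overlapped control and 1 week, and the difference from DEX (log2 0.87, SE 0.35, adjusted p = 0.372) did not pass. *Chrnb2*, a beta subunit of many neuronal receptors, averaged 33.9 ± 3.0, 39.4 ± 10.9, 39.5 ± 19.7 and 35.5 ± 2.1 CPM in the 4 groups in the same order. Of its exons, 16.3% are shared with *Adar* on the other strand.

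Markers of some other cells stood higher in the same 4 weeks pools, and those of others did not. The thyrotroph list summed to 462 to 728 CPM at 4 weeks, above control (127 to 282), DEX (50.7 to 263) and 1 week (137 to 317), and 3 of its 3 genes had a higher mean than in control. The 7 endothelial markers summed to 83.1 to 158 at 4 weeks against 10.4 to 76.0 in control, 6.46 to 13.5 in DEX and 30.2 to 183 at 1 week, and 7 of 7 had a higher mean than in control. The stem and folliculostellate list summed to 132 to 168 against 68.7 to 110 in control, 70.2 to 83.7 in DEX and 70.2 to 89.5 at 1 week. Of its 5 genes 4 had a higher mean than in control. The pericyte and fibroblast list summed to 177 to 292 at 4 weeks, above control (96.1 to 154) and DEX (76.8 to 118). It overlapped 1 week (86.2 to 230), and 6 of its 6 genes had a higher mean than in control. No gene of these lists was at 0 in all pools, and *Tshb*, *Kdr*, *Emcn*, *Pecam1* and *Plvap* rose between DEX and 4 weeks. In the DEX pools 0 of the 7 endothelial and 0 of the 6 pericyte and fibroblast markers had a higher mean than in control, and the neuron list summed to 134 to 181 CPM against 119 to 313 in control. At 4 weeks the neuron list summed to 157 to 197 CPM, within the control range, and 1 of its 6 genes had a higher mean than in control. The macrophage list at 4 weeks (20.7 to 60.9 CPM) overlapped control (21.0 to 28.9). The part of these cells in the values of *Chrnb3* and the other members was not tested.

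**Figure D3:**
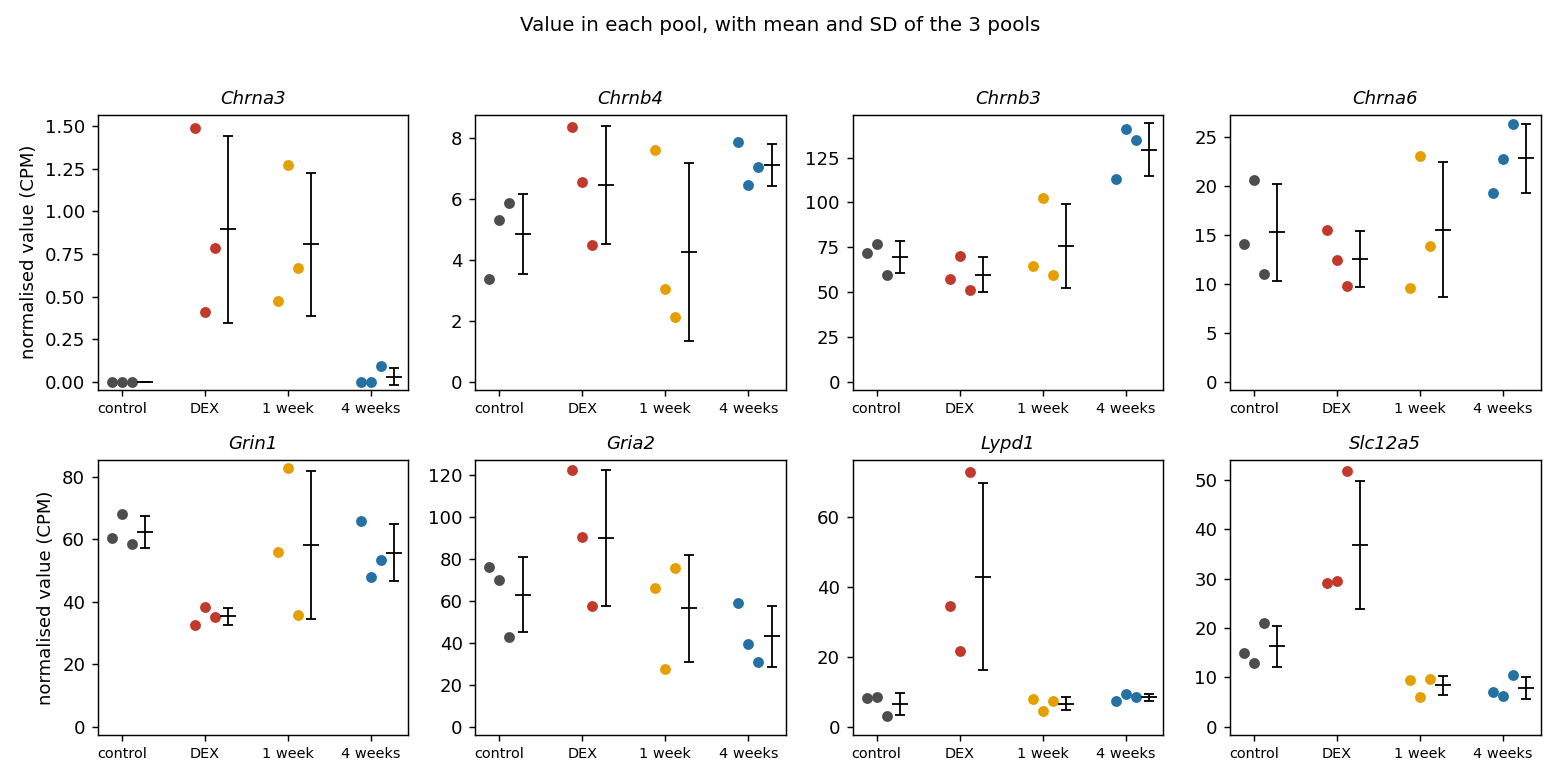
CPM in each pool of 6 members and 2 partner genes, coloured by group, with the mean and SD of the 3 pools beside the points; each panel has its own axis from 0. *Chrna3* is at or near 0 in control and 4 weeks, *Chrnb3* is highest in the 4 weeks pools, *Grin1* is lower in DEX than in control, and *Lypd1* and *Slc12a5* are highest in the DEX pools.

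*Grin1* was the member of the glutamate families with the smallest p among groups. It was at 60.3, 68.2 and 58.4 CPM in control and at 32.7, 38.3 and 35.0 in DEX, with no overlap. The 1 week pools were at 55.9, 82.8 and 35.8, spanning both, and the 4 weeks pools at 65.8, 47.8 and 53.5, above every DEX pool. The log2 difference of DEX from control was -0.82 (SE 0.28) and of 4 weeks from DEX 0.65 (SE 0.28), and neither passed after adjustment (adjusted p = 0.463 and 0.433, limma). Antisense *Grin1os* shares 13.5% of the *Grin1* exons, and its means were 28.2, 14.8, 28.1 and 25.4 CPM in control, DEX, 1 week and 4 weeks. The study's methods give a reverse stranded setting for counting, but the library kit does not mark the strand, so that reads of the shared part cannot be told apart between them. The summed NMDA level, of which *Grin1* is most, was 8.52 ± 0.75 CPM per kb in control, 4.93 ± 0.72 in DEX, 8.61 ± 1.5 after 1 week and 7.84 ± 0.83 after 4 weeks (SD, n = 3).

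*Gria2*, the AMPA subunit that keeps calcium from passing, had its highest mean in DEX and its lowest at 4 weeks. It was at 76.1, 70.0 and 42.7 CPM in control, 122, 90.2 and 57.5 in DEX, 66.1, 27.5 and 75.7 after 1 week and 59.1, 39.5 and 30.9 after 4 weeks. All groups overlapped, and the difference of 4 weeks from DEX (log2 -1.04, SE 0.39, adjusted p = 0.327) did not pass. *Gria4* and *Grik2* averaged 30.9 and 27.9 CPM, with group means from 29.6 to 33.0 and from 25.9 to 31.7. *Grik4*, a kainate subunit that needs a partner to form a channel, was at 0.942 to 1.89 CPM in control, 1.35 to 2.53 in DEX, 2.09 to 4.97 after 1 week and 2.74 to 4.51 after 4 weeks. Every pool of both recovery groups lay above every control pool, with log2 differences of 0.98 and 1.23 (SE 0.50 each) that did not pass (adjusted p = 1.00 and 0.740).

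Fewer reads lay behind the next members, and none of them passed. *Chrne*, the epsilon subunit of the adult muscle receptor, was at 5.59, 4.36 and 5.11 CPM in control, at 0.994, 1.14 and 0.673 in DEX and at 2.28, 0.765 and 0.778 at 1 week. At 4 weeks it was at 5.36 in pool 1 but at 0.985 and 1.08 in the others. DEX and 1 week lay below control in all pools, and the difference of DEX (log2 -2.32, SE 0.65) had an adjusted p of 0.298 by limma and passed only with the edgeR likelihood ratio test and DESeq2. *Chrna9*, known from cochlear hair cells, was at 2.75, 2.83 and 1.96 CPM in control, 0.828, 0.409 and 1.01 in DEX, 2.95, 3.19 and 1.22 after 1 week and 1.29, 1.86 and 4.51 after 4 weeks. Its DEX pools lay below all others, with a log2 difference from control of -1.68 (SE 0.59, adjusted p = 0.505).

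*P2rx6* and *P2rx2* encode ATP gated subunits, the first of which forms channels mainly together with others. *P2rx6* was at 4.17, 3.42 and 4.13 CPM in control and at 7.54, 8.75 and 7.18 in DEX, 4.85, 9.18 and 5.11 after 1 week and 6.74, 9.85 and 7.13 after 4 weeks. Each of the 9 other pools lay above the 3 control pools, and the log2 difference was 0.98 in DEX and 0.98 at 4 weeks (SE 0.35 each, adjusted p = 0.526 and 0.678). *Slc7a4*, on the other strand, shares 13.9% of the exons of *P2rx6* and averaged 55.4, 63.5, 61.6 and 64.2 CPM. *P2rx2* rested on fewer reads, from 0.787 to 2.17 CPM in control, 0.572 to 1.91 in DEX, 2.19 to 3.44 after 1 week and 3.16 to 4.07 after 4 weeks. Its recovery pools lay above control and DEX in each case, by 1.41 on the log2 scale at 4 weeks against control (SE 0.55, adjusted p = 0.708). At 1 week the separation from control was not resolved. The lowest 1 week pool (2.186 CPM, 23 reads) and the highest control pool (2.175 CPM, 20 reads) differed by less than the value of 1 read. *P2rx4* averaged 36.3 ± 8.5, 33.2 ± 4.0, 43.7 ± 11.2 and 36.8 ± 5.9 CPM in control, DEX, 1 week and 4 weeks.

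*Htr3a* was at 7.71, 14 and 14.1 CPM in control, 4.89, 7.11 and 10.8 in DEX, 17.2, 14.3 and 9.56 after 1 week and 12.8, 12.2 and 13.8 after 4 weeks. The 4 weeks pools were close together and above the DEX pools, a log2 difference of 0.83 (SE 0.36, adjusted p = 0.438). *Gabrg3*, a minor gamma gene, was at 3.79, 1.42 and 1.08 CPM at 4 weeks and did not exceed 0.979 in any other pool, and its log2 difference of 2.50 from DEX (SE 0.90, adjusted p = 0.293) did not pass.

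Pools that did not overlap were common among all genes, and the members were read against that. In DEX against control 2 members lay higher in all pools (*Chrna3*, *P2rx6*) and 3 lower (*Chrna9*, *Chrne*, *Grin1*), where 6.61% and 6.23% of the tested genes did. At 1 week 7 lay higher and 1 lower, where 3.47% and 2.61% of genes did. At 4 weeks 8 lay higher and 2 lower, where 6.77% and 6.42% of genes did. At 4 weeks against DEX 16 lay higher and 3 lower (*Chrna3*, *Gabrb1*, *Gabrr2*), where 9.8% and 9.67% of genes did. Those 16 included genes of the GABA-A, glycine, kainate, NMDA, nicotinic, P2X and 5-HT3 families.

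The median log2 difference of the 59 members was 0.38 at 4 weeks against control and 0.36 against DEX, whereas that of all tested genes was 0.00 in both. Among the 42 members with a mean of at least 1 CPM, 32 lay above 0 at 4 weeks against DEX with a median of 0.26, while 49.5% of the 15756 genes of that level did. With genes at the floor set to their bound, the medians were 0.31 and 0.20. Without the 3 distant pools they were 0.34 and 0.33. They depended on the pseudocount, at 0.20 and 0.18 with 0.5 and at 0.15 and 0.14 with 1, and the median against DEX was 0.13 without 4 weeks pool 1 and 0.15 with array weights. Against control it was 0.21 with either edgeR test and 0.20 with DESeq2. In DEX and at 1 week against control the medians were -0.03 and 0.12, beside -0.02 and 0.00 for all genes, and the former ranged from -0.20 to 0.08 over the settings tried. The summed level of all members was 134 ± 20.6 CPM per kb in control, 131 ± 21.5 in DEX, 143 ± 9.7 after 1 week and 160 ± 6.8 after 4 weeks (SD, n = 3), and the 4 weeks pools, at 152 to 164, lay above every DEX and control pool, though above control pool 2 (also 152) by far less than the SD of any group, and overlapped 1 week pool 1 (154).

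Genes that act with these channels were taken as 6 lists of 89 genes, of which 82 were tested. The limma F test passed 2 of them, *Slc12a5* and *Lypd1*, where 0.315% of all tested genes did. The study had itself chosen both on these samples, so that they are not independent evidence. At an unadjusted p under 0.05 in that test there were 15 partners, where 9.21% of all tested genes had such a p. *Slc12a5* encodes KCC2, the transporter that lowers chloride in neurons and so sets the direction of GABA-A and glycine currents. It was at 15, 13 and 21 CPM in control, 29.2, 29.4 and 51.7 in DEX, 9.41, 6.12 and 9.67 after 1 week and 7.11, 6.24 and 10.5 after 4 weeks. DEX pools lay above control and both recovery groups below it, and *Slc12a5* fell from DEX by 2.09 on the log2 scale at 1 week and by 2.18 at 4 weeks (SE 0.33 each, adjusted p = 0.0105 and 0.0083 by limma). DEX against control, at 1.14, did not pass (adjusted p = 0.337). *Slc12a2*, encoding NKCC1, which loads chloride, averaged 13.8, 16.5, 17.8 and 15.4 CPM in the same order.

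*Lypd1* encodes a membrane anchored toxin-like protein that binds nicotinic receptors. It was at 8.26, 8.60 and 3.04 CPM in control, 34.5, 21.6 and 72.8 in DEX, 7.98, 4.59 and 7.45 after 1 week and 7.30, 9.30 and 8.57 after 4 weeks. It rose in DEX by 2.63 on the log2 scale (SE 0.46, adjusted p = 0.0333) and fell by 2.53 at 1 week and by 2.17 at 4 weeks against DEX (adjusted p = 0.0215 and 0.0393). Both recovery groups overlapped control. Neither *Slc12a5* nor *Lypd1* passed the F test when DEX pool 1, DEX pool 3 or 4 weeks pool 2 was left out, and *Lypd1* was also lost without control pool 2, 4 weeks pool 1 or 4 weeks pool 3. Of the 13 genes of nicotinic assembly and acetylcholine handling, 12 were tested and *Lypd1* alone passed. An unadjusted F test p under 0.05 was found for 5 of them, and for 9.21% of all tested genes. *Ly6h* and *Ly6e*, of the same protein family, were the most abundant partners at 424 and 437 CPM on average, and neither passed.

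Few genes of the remaining lists passed. Of the 18 genes for GABA and glycine handling 17 were tested, *Slc12a5* passed and 2 had an unadjusted p under 0.05. *Gabarap*, *Gabarapl1* and *Gabarapl2*, which take part in receptor trafficking and autophagy, averaged 279, 217 and 145 CPM and did not pass. None of 23 tested glutamate receptor auxiliary and scaffold genes, 8 genes of ATP release and breakdown, 3 of serotonin handling or 19 G protein coupled receptors of the same ligands passed the limma F test. An unadjusted p under 0.05 was found for 3, 4, 0 and 1 of them, and for 9.21% of all tested genes. The 4 of 8 genes of ATP release and breakdown lay above that share. The edgeR quasi-likelihood F test also passed *Chrm2*, and DESeq2 passed 11 partners in all. Without the 3 distant pools 6 partners passed the limma F test, these 3 together with *Slc6a11*, *Neto1* and *Nt5e*. Between single groups *Chrm2*, the M2 muscarinic receptor gene also chosen by the study, was called at 1 week and at 4 weeks against DEX, with means of 2.30, 19.8, 0.867 and 0.486 CPM in control, DEX, 1 week and 4 weeks. *Entpd2*, which breaks down extracellular ATP, was called at 4 weeks against DEX on 17, 14 and 20 reads against 2, 2 and 1. *Chat*, the acetylcholine synthesis gene, had no read in any library, and *Gad2*, which makes GABA, averaged 24.0 CPM.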

How the data were processed

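Per the labels and the methods of the study, cDNA was made with SMART-Seq v4 and libraries with Nextera XT. The authors trimmed reads with Trim Galore 0.6.5, aligned them to GRCm38 (Ensembl release 98) with STAR 2.7.1a, kept read pairs of mapping quality 20 or more and counted them on genes with featureCounts 2.0.0, set to reverse stranded, although these kits do not mark the strand. The deposited table is a normalised signal, CPM of the effective library size from edgeR, for 12 libraries. Values divided by the value of 1 read gave whole reads for 100% of 271881 values above 0 (within 1e-6). The design had assumed CPM, and the test on log2 values was kept.

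Here limma 3.58.1 (R 4.3.3) was fitted to log2(value + 0.1) of all 12 libraries for the 24736 genes above 0.1 in at least 3 libraries, with group as the only factor, an F test over groups and 6 contrasts, and Benjamini-Hochberg adjustment over all tested genes. A fold change on this scale understates that of low genes. On recovered reads, the edgeR 4.0.16 quasi-likelihood F test called 165 genes and DESeq2 1.42.0 called 734, against 78 by limma. Scripts were tested on simulated data. Other settings were 2 pseudocounts, 2 filters, median ratio scaling, array weights, a replicate block, an edgeR likelihood ratio test and leaving out each pool. One setting, without 3 pools, was added after seeing the data. Per kb values used merged GENCODE exons.

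The members and the lists of partners and markers were chosen with earlier results of these data known. Named members were the 12 with the highest mean, those called, the 10 with the smallest F test p and the most abundant of each family, and some of them are not reported here. Named partners were those called and the 5 with the highest mean. *Chrna6*, *Chrnb4*, *Slc12a2*, *Chrm2*, *Entpd2* and other genes outside this rule were named after their values were seen.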

Additional observations from a re-analysis of the deposited data

Results flagged for a closer look

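The effects against control of DEX and of 4 weeks of recovery differed for 2 members, by the direct contrast of 4 weeks with DEX in limma. For *Chrna3* this contrast had an adjusted p of 0.0488, with all DEX pools at 0.409 CPM or more and all 4 weeks pools at 0.0902 or less. It was lost in 7 of 10 alternative settings and when any of 10 single pools was left out. For *Chrnb3* the same contrast had an adjusted p of 0.0485, with all DEX pools at 70.4 CPM or less and all 4 weeks pools at 113 or more. It was lost without a filter, with the edgeR quasi-likelihood test and when any of 9 single pools was left out.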

How the results depend on the processing

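The members called in the F test (1 as reported) numbered 0 with a pseudocount of 0.5 or 1, without a filter, with a filter above 1, with the replicate block and with the edgeR quasi-likelihood test, 2 with the edgeR likelihood ratio test, and 3 with array weights or DESeq2. At 4 weeks against DEX (2 as reported) they numbered 1 with either pseudocount, a filter above 1, the replicate block, the likelihood ratio test or DESeq2, 0 without a filter or with the quasi-likelihood test, and 5 with array weights. In DEX against control (0) they numbered 1 with array weights and 2 with the likelihood ratio test or DESeq2. Array weights gave 1 at 4 weeks against control and 1 at 1 week against DEX. Partners in the F test (2) numbered 7 with array weights, 1 with the replicate block, 9 with the likelihood ratio test, 11 with DESeq2 and 6 without the 3 distant pools. Leaving out 1 pool gave 0 to 1 members in the F test, 0 to 2 at 4 weeks against DEX, 0 to 0 in the other comparisons, and 0 to 4 partners. The cause was not tested. The differences of *Chrnb3* and *Chrna3* at 4 weeks against DEX kept their sign in every setting in which they were tested. The sign was not followed in this way for other members. The members' median in DEX against control (-0.03) was 0.08 with array weights, without control pool 1 and without DEX pool 3. At 4 weeks against 1 week the median (0.12) was -0.03 without 4 weeks pool 1. All genes called in the F test ranged from 68 without a filter to 1069 with array weights.

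Pools that shared a number had correlated deviations from -0.29 to 0.40, all above 0.1 only between control and 1 week (0.14 to 0.40), where the block changed no call of a member. It lost *Chrna3* in the F test and at 4 weeks against DEX (adjusted p = 0.0662) and *Lypd1* in the F test. The labels do not say that a number marks a shared day, so the numbers were not read as pairs.

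Of the 67 members, 25 averaged under 1 CPM, a level of few reads per pool, and depth limits what was detectable there.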
